A study of Arabidopsis thaliana with 76 samples.

Results

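The genes described here are the 133 loci of the *Arabidopsis* chloroplast genome, taken by rule as every locus whose identifier starts with ATCG and whose position is on the plastid chromosome (Pt), out of 33557 genes in the deposited tables. They comprise 86 protein-coding loci, 8 rRNA genes, 37 tRNA genes, and 2 loci without an annotated product, and they were set beside 146 mitochondrial and 33278 nuclear genes. Seedlings in liquid culture were treated at ZT−1 with 30 μM DCMU, 50 μM DBMIB, or ethanol (mock), or were left untreated, at 22°C and 27°C, and were sampled at ZT1 (2 libraries per group). The sample titles give the untreated liquid culture as Col-0 (col), and those of the treated libraries name only the treatment and temperature. The mutant *ss4-1* (*ss4* below) and the wild type Col-0 (WT) were grown at constant 17°C and sampled at 8 times of day, from ZT−4 to ZT16 (2 libraries per genotype and time), and *pgm*, *ss3/4*, and *ss3/4/pgm* were sampled at 17°C at ZT0 and ZT2 (2 libraries each). WT was also sampled at the same 8 times at 22°C and 27°C, with 1 library per point and only TPM used here. All plants grew in short days of 8 h light, each library came from a pool of seedlings, and ZT gives the hours after lights on, so that the samples of ZT1, ZT2, ZT4, and ZT8 were taken in the light and those of ZT12, ZT16, ZT−4, and ZT0 in the dark.

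The plastid genome keeps a small remnant of the genes of a cyanobacterial ancestor, namely core subunits of both photosystems, the cytochrome b6f complex, the ATP synthase, the NDH complex of cyclic electron flow, the large subunit of Rubisco (*rbcL*), ribosomal proteins, rRNAs, tRNAs, and a bacterial-type RNA polymerase. Most plastid operons are read by that plastid-encoded polymerase, which depends on nuclear sigma factors, while *rpoB*, *accD*, and *ycf2* are read mainly by a nuclear-encoded phage-type polymerase. PGM is the plastidial phosphoglucomutase on the path to starch, SS3 and SS4 are soluble starch synthases, DCMU blocks electron transfer from photosystem II to plastoquinone, and DBMIB blocks oxidation of plastoquinol by cytochrome b6f. Plastid messages mostly lack the long poly(A) tails by which the library kits named in the labels pull down mRNA, so that their counts are a small remainder of a larger pool. The shares below are therefore shares of what was sequenced, and fewer plastids and less RNA per plastid cannot be told apart in them.

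A bacterial-type promoter of this genome is made of an upstream box (TTGACA) and a downstream box (TATAAT or TATACT). A search of the 250 bases before and 50 bases after each of 131 annotated gene starts, on both strands, found TTGACA in 22.1%, TATAAT in 38.2%, and TATACT in 16.8% of windows, and a pair of boxes at the right distance in 1.53%. The pairs of *psbA* and *trnK*, the genes at one end of the large single-copy region whose transcripts include *psbA* and *matK* described below, are shown with the boxes in capitals, on the minus strand of TAIR10.
psbA, Pt:1530-1559: TTGACAtggctatataagtcatgtTATACT
trnK, Pt:4458-4486: TTGACAacagtgtatggaccaaaTATAAT
The spacer between the boxes has 18 bases in *psbA* and 17 bases in *trnK*, and the downstream box lies 85 and 110 bases before the annotated start. A match describes the letters and not the use of a site.

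Before the results, 3 properties of the libraries need stating. PGM counts were low in every *pgm* and *ss3/4/pgm* library (8.05 to 24.8 and 10.8 to 25.7 CPM, which are counts scaled to a common library size, against 97.7 to 112 CPM in WT at ZT0 and ZT2), and SS3 was low in every *ss3/4* and *ss3/4/pgm* library (21.7 to 28.0 and 19.7 to 25.5 CPM, against 98.8 to 113 CPM), whereas SS4 counts overlapped between *ss4* (44.0 to 155 CPM) and WT (45.1 to 182 CPM) and do not check that label. The inhibitor libraries went against their labels. The distance between 2 libraries (root mean square log2 difference over 20521 genes) was 1.30 at 22°C and 1.39 at 27°C between the replicates labelled DCMU and 1.30 and 1.45 between those labelled DBMIB, but 0.476 and 0.595 between the library labelled DCMU replicate 1 and that labelled DBMIB replicate 2. The library of WT at ZT16 replicate 2 had the highest plastid share of all WT and *ss4* libraries and is left out where a value rests on it. Depth was 3204754 to 19679912 counts per library over the 60 libraries with counts (median 9800431). The markers of green tissue *LHCB1.1*, *RBCS1A*, and *CA1* were present in all of them.

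The share of the plastome was small in most libraries and high in 4. Plastid protein-coding loci took 1.87% and 1.65% of all counts in *pgm* at ZT2 and 2.00% and 1.58% in *ss3/4/pgm* at ZT2, against 0.0869% and 0.050% in *ss3/4* and 0.0996% and 0.0983% in WT at ZT2. In the other 56 libraries the share ran between 0.0431% and 0.281% with a median of 0.0796%, and its upper end was 0.174% without WT at ZT16 replicate 2. The lowest of the 4 libraries thus lay well above the highest of all others, and the groups did not overlap. Relative to WT at ZT2 the mean share was 17.8-fold in *pgm*, 18.1-fold in *ss3/4/pgm*, and 0.692-fold in *ss3/4*.

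**Figure D1:**
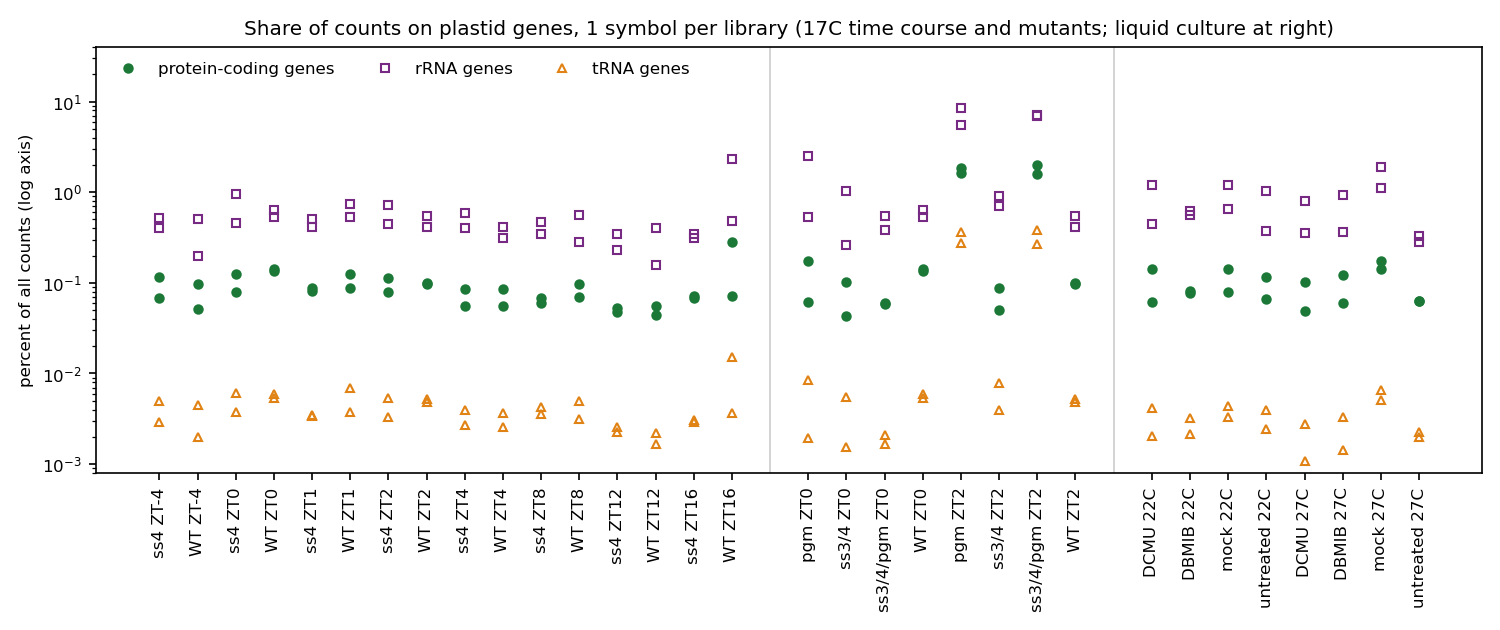
Percent of all counts on plastid protein-coding genes (filled circles), rRNA genes (squares), and tRNA genes (triangles) in each of 60 libraries, on a log axis, by genotype, time, and treatment; the WT libraries at ZT0 and ZT2 drawn right of the mutants are the same libraries as in the time course. In the 4 libraries of *pgm* and *ss3/4/pgm* at ZT2 the coding share was between 1.58% and 2.00%, above all other libraries.

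The rise was not confined to messages. Plastid rRNA took 5.54% to 8.52% of counts in the 4 libraries, against 0.159% to 2.53% in the other 56, and plastid tRNA genes took 0.266% to 0.385%, against 0.00108% to 0.0152%. Neither pair of ranges overlapped. Over WT at ZT2 the tRNA share was 63.4-fold in *pgm* and 64.8-fold in *ss3/4/pgm*, and the rRNA share 14.7-fold and 14.6-fold, so that there were 16.8 to 19.3 tRNA counts per 100 coding counts in the 4 libraries and 2.21 to 9.14 in the others. Within the plastid counts, rRNA made up 74.2% to 79.2% in the 4 libraries and 77.6% to 94.4% in the others.

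Other RNAs that usually lack a tail moved less. Mitochondrial genes took 0.122% to 0.161% of counts in the 4 libraries and 0.0211% to 0.338% in the other 56, which overlap. Over WT at ZT2 the mitochondrial share was 2.86-fold in *pgm*, 2.58-fold in *ss3/4/pgm*, and 1.20-fold in *ss3/4*, and the share of nuclear rRNA was 3.39-fold, 3.13-fold, and 1.89-fold. Nuclear snoRNA genes (0.00834% to 0.0110% against 0.00202% to 0.0163%) and nuclear tRNA genes (0.00065% to 0.000844% against 0.000437% to 0.00176%) overlapped as well. *LHCB1.1*, a nuclear gene for a light-harvesting protein, had 2452 to 3124 CPM in the 4 libraries and 602 to 6489 CPM in the others. The part of RNA selection, library kit, and sequencing run in the high share was not tested, and kit and run are not assigned to libraries in the labels, so that they cannot be told apart from genotype and time.

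At ZT0, before lights on, the same genotypes did not have a high coding share. It was 0.0614% and 0.174% in *pgm*, 0.0604% and 0.0592% in *ss3/4/pgm*, and 0.0431% and 0.102% in *ss3/4*, against 0.144% and 0.136% in WT. From ZT0 to ZT2 the mean share changed 14.95-fold in *pgm*, 29.9-fold in *ss3/4/pgm*, 0.943-fold in *ss3/4*, and 0.707-fold in WT. Without *pgm* replicate 1 or replicate 2 at ZT0 the value for *pgm* was 10.1-fold or 28.6-fold, and without *ss3/4* replicate 1 or replicate 2 that for *ss3/4* was 0.670-fold or 1.59-fold, which turns its direction. Since ZT0 and ZT2 fell on either side of lights on and the samples of each were separate pools, the contrast is between pools and not within plants. With 2 libraries per group the exact permutation test over ZT0 and ZT2 together (two-sided) could not go below p = 0.0556, and it gave p = 0.222 for *pgm*, 0.333 for *ss3/4/pgm*, and 0.0556 for *ss3/4*.

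Locus by locus, edgeR's quasi-likelihood test on the whole table (20130 genes, TMM scaling, Benjamini-Hochberg adjusted p under 0.05) called 85 of 86 plastid coding loci higher and 0 lower in *pgm* at ZT2, and the same numbers in *ss3/4/pgm*. Of all genes tested, 19.4% were called higher and 21.0% lower in *pgm*, and 19.7% and 21.7% in *ss3/4/pgm*. The median log2 fold change over the coding loci was 4.55 in both. All 34 tRNA genes that passed the filter (of 37) and all 8 rRNA genes were higher too, with medians of 6.29 and 4.72 in *pgm* and 6.24 and 4.74 in *ss3/4/pgm*. The filter on low counts included the 4 high libraries, and in the fit of WT and *ss4* only 13 plastid tRNA genes passed it. tRNA genes that passed only through the high libraries could hardly come out otherwise, so their number and median are description and not support. The 3 comparisons with WT at ZT2 share the same WT libraries, so they are not independent of each other. Tested directly, *ss3/4/pgm* minus *pgm* at ZT2 gave no coding locus past the threshold (0 at an unadjusted p under 0.05, median log2 0.07; 0.00497% and 0.00994% of all genes were called higher and lower), and *ss3/4/pgm* minus *ss3/4* at ZT2 gave 85 higher (12.4% of all genes were called higher and 13.6% lower). The effect at ZT2 minus the effect at ZT0 was past the threshold and positive for 84 coding loci in *pgm*, 84 in *ss3/4/pgm*, and 11 in *ss3/4*, and negative for none. Of all genes, 14.4% were higher and 16.8% lower by that test in *pgm*, 15.7% and 17.8% in *ss3/4/pgm*, and 9.35% and 12.9% in *ss3/4*. With the effects at ZT0 and ZT2 averaged, 74 coding loci were higher and 0 lower in *pgm* (29.4% and 31% of all genes), 71 and 0 in *ss3/4/pgm* (30.9% and 31.9%), and 4 and 23 in *ss3/4* (34.1% and 33%). The number in *ss3/4* was 17 without *ss3/4* at ZT0 replicate 1 and 44 without *ss3/4* at ZT0 replicate 2.

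**Figure D2:**
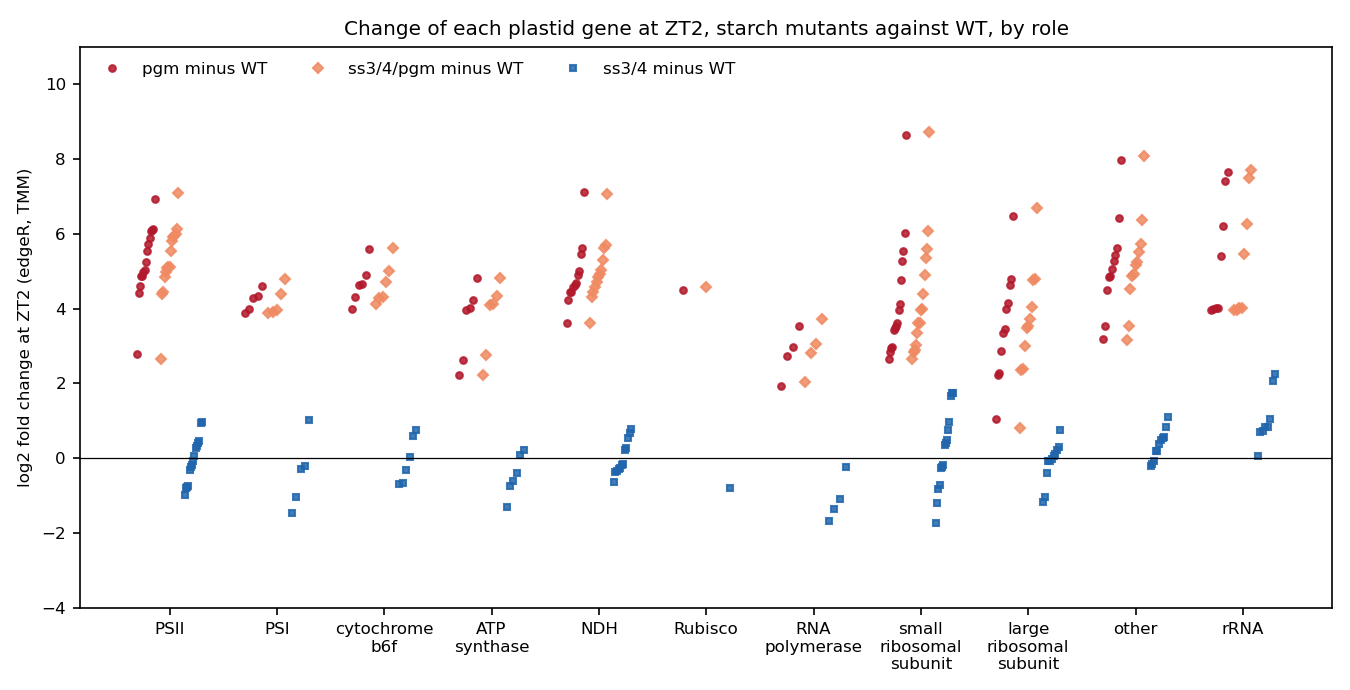
Log2 fold change at ZT2 (edgeR, TMM) of each plastid gene in *pgm*, *ss3/4/pgm*, and *ss3/4* minus WT, 1 symbol per locus, grouped by role on the horizontal axis. Nearly all points of *pgm* and *ss3/4/pgm* lie above 0, with medians of 4.55 over the coding loci, and those of *ss3/4* scatter around 0.

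Among the photosynthesis genes, *psbA* (ATCG00020, Pt 383 to 1444, minus strand; the D1 core protein of photosystem II) had 3121 and 2213 CPM in *pgm*, 2682 and 2601 CPM in *ss3/4/pgm*, 77.1 and 69.6 CPM in *ss3/4*, and 122 and 128 CPM in WT at ZT2 (CPM after TMM scaling here and below). *rbcL* (ATCG00490, Pt 54958 to 56397, plus strand) had 3093 and 2197 CPM in *pgm*, 2899 and 2637 CPM in *ss3/4/pgm*, 70.8 and 62.6 CPM in *ss3/4*, and 116 CPM in both WT libraries. In both genes every *pgm* and *ss3/4/pgm* library was far above WT and every *ss3/4* library below it. The log2 fold changes at ZT2 were 4.41 in *pgm* and 4.40 in *ss3/4/pgm* for *psbA* (SE 0.38 each) and 4.51 and 4.58 for *rbcL* (SE 0.45 each). In *ss3/4* neither difference passed the test (log2 −0.77, adjusted p = 0.068 for *psbA*, and −0.79, adjusted p = 0.11 for *rbcL*, edgeR).

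All 15 photosystem II loci were higher in *pgm* and in *ss3/4/pgm*, with median log2 fold changes of 5.25 and 5.10. *psbD*, the D2 core protein, had 455 and 395 CPM in *pgm*, 415 and 349 CPM in *ss3/4/pgm*, and 18.1 and 16.9 CPM in WT, and its cistron overlaps *psbC*, an inner antenna protein, by 53 bases. *psbJ*, a small subunit, had 115 and 103 CPM in *pgm*, 117 and 143 CPM in *ss3/4/pgm*, and 2.11 and 1.62 CPM in WT. The 5 photosystem I loci had medians of 4.27 and 3.97, the 6 cytochrome b6f loci 4.66 and 4.51, the 12 NDH loci 4.66 and 4.89, and the 6 ATP synthase loci 4.00 and 4.11. The lowest of the ATP synthase genes was *atpB* (β subunit), at log2 2.22 in both (SE 0.24).

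The 4 subunits of the plastid RNA polymerase had medians of 2.86 in *pgm* and 2.94 in *ss3/4/pgm*, the small ribosomal subunit proteins 3.604 and 3.97, and the large ribosomal subunit proteins 3.46 and 3.54, each below the median over all coding loci, as were those of photosystem I and the ATP synthase. The differences between roles were not tested. *rpoB* (ATCG00190, Pt 23111 to 26329; the β subunit of the polymerase) had 198 and 167 CPM in *pgm*, 218 and 171 CPM in *ss3/4/pgm*, and 50.9 and 44.7 CPM in WT, a log2 fold change of 1.93 and 2.04 (SE 0.19 each). Of other genes with transcripts of the nuclear-encoded polymerase, *accD*, a subunit of acetyl-CoA carboxylase, was at 4.51 and 4.53 (SE 0.33), *ycf2* (ATCG00860) at 5.07 and 5.18 (SE 0.39), and *clpP*, described below, at 3.18 and 3.16 (SE 0.19).

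*rpl32* (ATCG01020, Pt 113449 to 113607; a protein of the large ribosomal subunit) was the coding locus that did not pass. It had 23.9 and 25.9 CPM in *pgm*, 26.7 and 13.4 CPM in *ss3/4/pgm*, 17.5 and 2.61 CPM in *ss3/4*, and 5.84 and 17.0 CPM in WT. The *ss3/4/pgm* libraries overlapped WT and the *pgm* libraries lay a little above it (log2 1.05, SE 0.47, adjusted p = 0.083 in *pgm*; log2 0.80, adjusted p = 0.19 in *ss3/4/pgm*; edgeR).

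At the other end were loci with larger changes, several of them with few counts in WT. *matK* (ATCG00040, Pt 2056 to 3636; an intron maturase) had 1075 and 928 CPM in *pgm*, 1228 and 693 CPM in *ss3/4/pgm*, 13.4 and 4.75 CPM in *ss3/4*, and 8.82 and 13.7 CPM in WT. All 1581 bases of *matK* lie inside *trnK*, so that reads of the message and of the unspliced tRNA precursor cannot be told apart, and *trnK* itself was at log2 6.39 in *pgm* and 6.23 in *ss3/4/pgm* (SE 0.20 each). *ndhF*, an NDH subunit, was at 7.11 and 7.07 (SE 0.35), and the partial copy of *ycf1* (ATCG01000), which overlaps *ndhF* by 39 bases on the other strand, at 7.98 and 8.09 (SE 0.28). The partial *ycf1* had 1678 and 1948 counts in *pgm* and 3074 and 1172 counts in *ss3/4/pgm*, against 6 and 15 counts in WT. *rps16*, an intron-containing ribosomal protein gene, had 257 and 380 counts in *pgm* and 526 and 189 counts in *ss3/4/pgm*, against 0 and 2 counts in WT, too few for a fold. Taken over each group's counts, the fold over WT ran from 1.78 to 226 in *pgm* (median 20.9) and from 1.55 to 257 in *ss3/4/pgm* (median 21.6) across the other coding loci. Among the 37 tRNA genes, 18 had fewer than 3 counts in both WT libraries together and 11 had none. The rRNA genes differed too: *rrn23S* was at log2 4.02 in both mutants and *rrn16S* at 3.98 and 3.96, against 7.43 to 7.65 and 7.498 to 7.70 for the copies of *rrn4.5S*, a small rRNA of the large subunit.

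The make-up of the plastid messages in these 4 libraries differed from that in the other 56. As percent of all plastid coding counts, 13 loci lay above every other library, 5 lay below every other library, and 68 overlapped. Those above were *psbZ* (1.40% to 1.73% against 0% to 0.490%), *matK* (4.26% to 6.13% against 0.116% to 1.94%), *ndhF* (1.13% to 1.93% against 0.0733% to 0.590%), *ndhA*, *ndhH*, *psbB*, *psbN*, *psbH*, *rpl33*, *rps18*, *rps16*, *ycf4*, and the partial *ycf1*. Those below were *rpoB* (0.993% to 1.09% against 1.29% to 10.5%), *atpB* (1.15% to 1.27% against 2.01% to 8.71%), *clpP*, the catalytic subunit of the Clp protease (0.367% to 0.418% against 0.431% to 2.90%), *rpl16* (0.297% to 0.353% against 0.484% to 2.69%), and *rps7* (ATCG00900, 0.110% to 0.125% against 0.126% to 0.693%). By role, the NDH genes together took 5.96% to 7.58% against 2.09% to 5.49%, and the ATP synthase genes 5.69% to 6.03% against 6.64% to 16.0%. The shares of photosystem II (29.96% to 33.6% against 21.2% to 47.4%), photosystem I, *rbcL*, the RNA polymerase (2.995% to 3.35% against 2.378% to 13.5%), and the ribosomal proteins overlapped. These are descriptions of labelled libraries, and the 4 were set apart after their shares were seen. How many loci separate for other sets of libraries was not computed, so the numbers of loci above and below have no reference. Some ranges of the other libraries reach the floor, as *psbZ* and *rps16* had 0 counts in the library labelled DCMU at 27°C replicate 1.

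**Figure D3:**
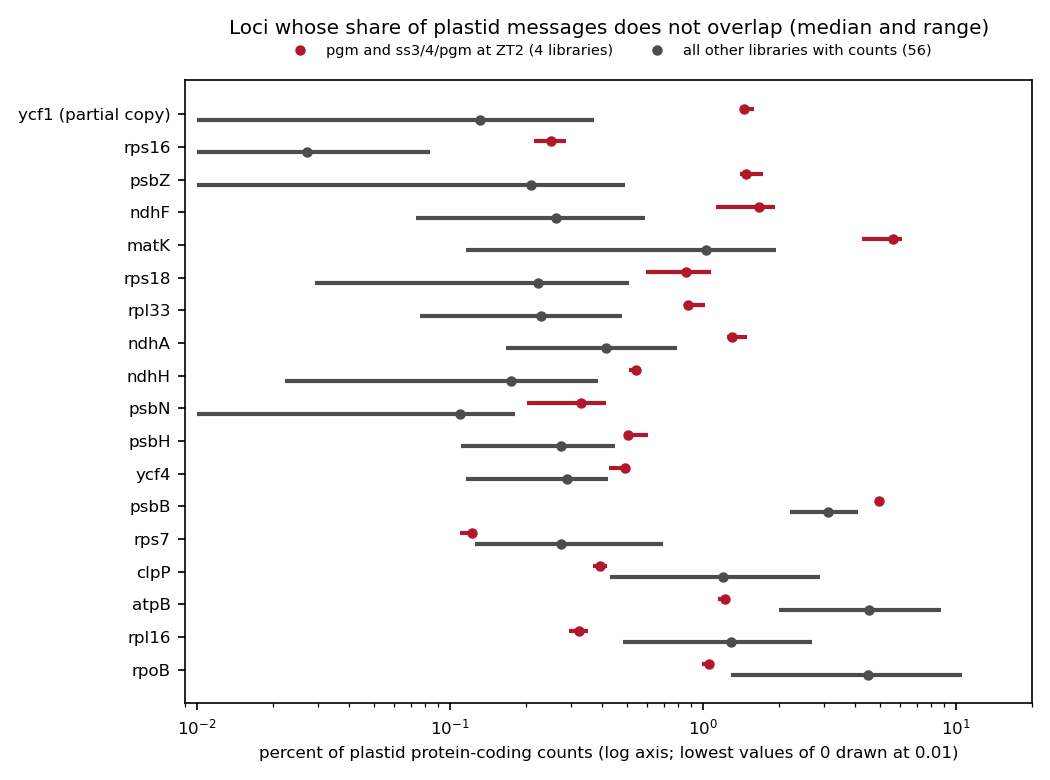
Loci whose percent of plastid protein-coding counts did not overlap between the 4 libraries of *pgm* and *ss3/4/pgm* at ZT2 and the other 56 libraries, with the median (point) and range (line) on a log axis, lowest values of 0 drawn at 0.01. *psbZ* stood at 1.40% to 1.73% against at most 0.490%, and *rpoB* at 0.993% to 1.09% against at least 1.29%.

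With library size set to the sum of plastid coding counts, which takes out the common rise, edgeR called 13 coding loci higher and 14 lower at ZT2 in *pgm*, and 13 and 14 in *ss3/4/pgm*. On that scale 0.189% and 98.9% of all genes were called higher and lower in each mutant, and the median over all genes was −4.29 in *pgm* and −4.34 in *ss3/4/pgm*. The effect at ZT2 minus that at ZT0 gave 12 coding loci higher and 3 lower in *pgm* (0.0944% and 95.5% of all genes), 8 and 5 in *ss3/4/pgm* (0.0944% and 98%), and 0 in *ss3/4* (1 at an unadjusted p under 0.05; 0.0795% and 0.129%). The average of both times gave 4 higher and 13 lower in *pgm* (0.283% and 94.2%), 8 and 13 in *ss3/4/pgm* (0.422% and 89.4%), and 5 and 1 in *ss3/4* (35% and 3.08%), a number that ran from 1 to 15 with single libraries left out. Leaving out WT at ZT2 replicate 1 brought the *pgm* calls to 6 higher and 8 lower and the *ss3/4/pgm* calls to 6 and 9. In data simulated for the *pgm* comparison all 10 loci made to deviate were recovered, but 22 of the other 76 coding loci (28.9%) were called as well. These counts are therefore not read as numbers of loci that changed. The ranges by library above were not simulated.

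Ranked per base of exon, the order of the plastid messages in the 4 libraries was led by *psbA*, *rbcL*, *psbZ*, *psaJ*, *psbJ*, *rps14*, *rpl33*, *atpH*, *matK*, and *psbC*, and in the other 56 by *psbA*, *rpl32*, *rbcL*, *psaJ*, *atpE*, *psbM*, *atpH*, *rpl16*, *psbI*, and *atpB*. *psbZ* stood in place 3 against 35, *rpl33* in place 7 against 34, and *matK* in place 9 against 50, whereas *rpl32* stood in place 47 against 2 and *rpoB* in place 74 against 29. The place of *rpl32* among the other 56 is uncertain, since its counts differed widely between replicates there (10 and 247 in mock at 27°C). The order was more alike among the 4 libraries (Spearman rho 0.924 to 0.988 over 86 loci) than between them and the others (0.360 to 0.841, median 0.612). Pairs among the other 56 libraries had 0.579 to 0.978 (median 0.879), a range that overlaps the one before, and replicates of 1 group had 0.737 to 0.983. These rank correlations are across loci of the same libraries, and the loci are not independent replicates.

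The letters of the exons bore a weak relation to the size of the change. Over 79 genes the within-plastome change at ZT2 (mean of *pgm* and *ss3/4/pgm* minus WT) had a Spearman rho of −0.306 with the percent of A, 0.425 with the percent of T, and −0.170 with the longest run of A, given as a description since genes share operons and base composition. With the most A in any 20 exon bases rho was −0.215. With the per-length level in WT at ZT2 it was −0.482, but the WT level also enters the change itself. The 20 exon bases richest in A are shown for 2 loci that lay below the other libraries in share and 3 that lay above, read 5′ to 3′ on the strand of the gene in TAIR10, with A in capitals.
rpoB, Pt:25682-25701: AtAAggAgAAAAAAAAAAtA
clpP, Pt:70831-70850: AtAgAAAAggAtAccAAAgA
matK, Pt:3193-3212: AAggAAAAcAAttAAAAAAA
ndhF, Pt:111181-111200: gtAAAgAAgAAgAAAAAAAA
psbZ, Pt:35851-35870: cgAgtAAcAAAAAtgttgtA
*rpoB* held 15 and *clpP* 12 A in these 20 bases, against 15 in *matK*, 15 in *ndhF*, and 9 in *psbZ*, so that A-rich stretches occurred on both sides.

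At ZT0 the plastid coding loci that passed the test in the starch mutants were nearly all lower than in WT. In *pgm*, 13 of 86 coding loci were lower and 1 was higher (28.9% and 28.1% of all genes), in *ss3/4* 22 were lower and 0 higher (28.1% and 30.4%), and in *ss3/4/pgm* 34 were lower and 1 higher (30.7% and 30.6%). The share of coding loci that were lower was near the background in *ss3/4*, somewhat above it in *ss3/4/pgm*, and under it in *pgm*, and the 3 mutants share their WT libraries. The medians over the coding loci were −0.50, −0.70, and −0.998 on the log2 scale. The count depended on single libraries in *ss3/4*, with 10 loci called without *ss3/4* replicate 1 and 48 without *ss3/4* replicate 2. *pgm* replicate 2 at ZT0 stood apart from replicate 1 (coding share 0.174% and 0.0614%, *psbC* 140 and 19.2 CPM), and without it 18 loci were called in *pgm*, against 8 without WT replicate 1 and 9 without WT replicate 2. In *ss3/4/pgm* 23 loci were called without *ss3/4/pgm* replicate 1. Relative to the plastid coding sum, edgeR called 0 loci in *pgm* (7 at an unadjusted p under 0.05; 2.99% and 1.91% of all genes were higher and lower), 0 in *ss3/4* (2 unadjusted; 18.6% and 1.25%), and 1 lower in *ss3/4/pgm* (16.7% and 1.01%). That call was lost without any of the 4 libraries compared, and 7 loci were called in *pgm* without *pgm* replicate 1 and 9 in *ss3/4* without *ss3/4* replicate 2.

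The loci that were lower at ZT0 included most of the cluster from *rpl23* to *rpoA*, which encodes ribosomal proteins and the α subunit of the polymerase and is read as 1 operon. *rpoA* (ATCG00740, Pt 77901 to 78890) had 2.67 and 5.41 CPM in *pgm*, 2.99 and 10.8 CPM in *ss3/4*, and 3.79 and 2.74 CPM in *ss3/4/pgm*, against 16.0 and 15.2 CPM in WT. All 6 mutant libraries were below both WT libraries (log2 −2.13, −1.33, and −2.27, SE 0.54, 0.40, and 0.44, edgeR adjusted p = 0.0025, 0.0074, and 2.0e-04). *rpl14*, *rps3*, *rpl16*, and *rps19* were lower in all 3 mutants as well, at log2 −1.02 to −2.42. Outside the cluster, *rps15* (−2.94, −2.13, and −3.89), the long *ycf1* (ATCG01130; −1.92, −1.15, and −1.89), a subunit of the protein import machinery, and *matK* (−1.79, −1.05, and −1.41) were lower in all 3.

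**Figure D4:**
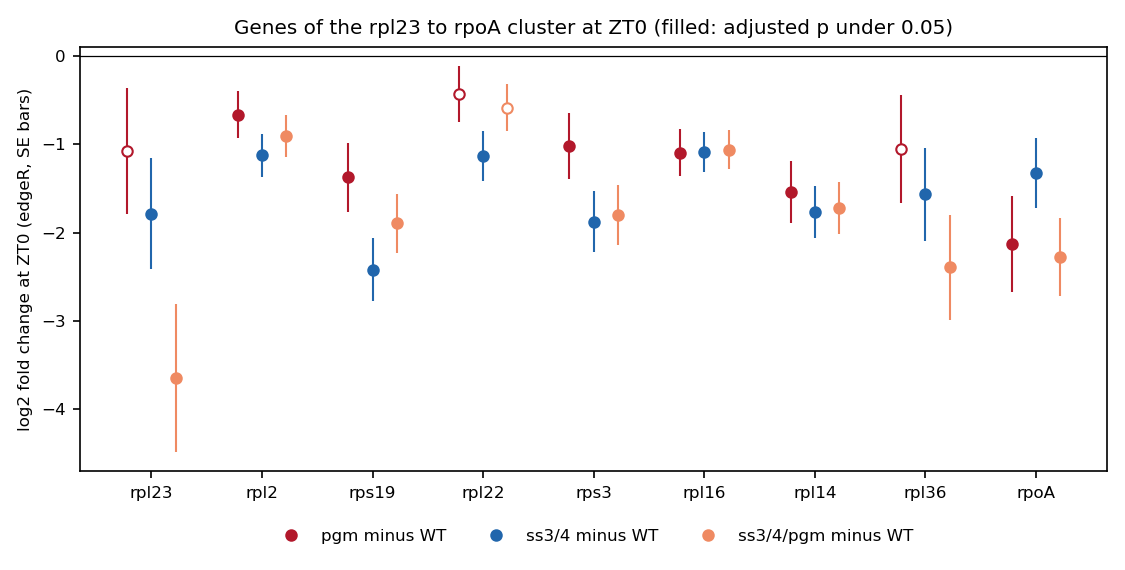
Log2 fold change at ZT0 (edgeR, bars give the SE) of 9 genes between *rpl23* and *rpoA*, both included, in *pgm*, *ss3/4*, and *ss3/4/pgm* minus WT, filled where the adjusted p was under 0.05. *rpoA* was at −2.13, −1.33, and −2.27, and all points lie below 0.

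*psaJ*, a small subunit of photosystem I, went the other way. It had 12.03 and 13.1 CPM in *pgm*, 10.6 and 7.99 CPM in *ss3/4*, and 11.8 and 9.46 CPM in *ss3/4/pgm* at ZT0, against 5.67 and 8.12 CPM in WT. It was higher in *pgm* (log2 0.83, adjusted p = 0.0052, edgeR) and in *ss3/4/pgm* (log2 0.60, adjusted p = 0.017), and a replicate of *ss3/4* overlapped WT. The rRNA genes differed from the messages at ZT0 in *pgm*, where 6 of 8 were higher by log2 1.86 to 2.38. The rRNA share was 0.530% and 2.53% in *pgm*, against 0.634% and 0.536% in WT, so that only *pgm* replicate 2, the library that stood apart, was above WT.

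*ss3/4* at ZT2 showed changes in both directions, with 4 coding loci higher and 6 lower (26.6% and 27.4% of all genes). *psaJ* (log2 1.02), both copies of the 3′ part of *rps12* (1.75 and 1.66), and *clpP* (0.83) were higher, and those that were lower included *atpB* (−1.31), *rpl14* (−1.03), *rps3* (−1.21), *rpoC2* (−1.67), and *rpoA* (−1.37). *atpB* had 23.4 and 12.6 CPM in *ss3/4* and 49.9 and 44.0 CPM in WT, which do not overlap. The copies of *rps12*, *rpl23*, *ycf2*, and the rRNA genes in the inverted repeats share their sequence, and how the counting treated reads that match both copies is not given in the sources used here. Without *ss3/4* replicate 1 at ZT2, 17 loci were called. Relative to the plastid coding sum 2 loci were higher and 0 lower (5.13% and 0.874% of all genes), and 0 were called without either WT library at ZT2.

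In *ss4* over the whole day the plastid genes changed little. The coding share averaged 0.0789% in *ss4* and 0.09996% in WT (mean of 8 time points, 2 libraries each), a difference of −0.0210 (exact permutation test within time points, two-sided, p = 0.127, adjusted p = 0.393 over 23 share comparisons). Without WT at ZT16 replicate 2 the difference was −0.0079. Averaged over the 8 time points, 1 of 84 coding loci was higher and 5 were lower (6.66% and 7.88% of 20692 genes; edgeR), with a median log2 of −0.23. The number ran from 2 to 15 when single libraries were left out, lowest without WT at ZT−4 replicate 1 or *ss4* at ZT1 replicate 2 and highest without WT at ZT16 replicate 1, and was 3 without WT at ZT16 replicate 2. *psaJ* had a lowest, median, and highest value of 6.93, 10.6, and 18.6 CPM in 16 *ss4* libraries and 5.88, 7.91, and 14.1 CPM in 16 WT libraries. The ranges overlapped, and the mean was higher in *ss4* at 7 of 8 times (log2 0.42, SE 0.10, adjusted p = 0.0070). The lower loci were *psbD* (log2 −0.70; 4.36, 9.19, and 25.4 CPM in *ss4* and 5.28, 16.9, and 42.7 CPM in WT), *rpoC2* (−0.61), *psaB* (−0.59), *rpoA* (−0.54), and *atpB* (−0.31), each lower at 6 or 7 of 8 times. Without WT at ZT16 replicate 2, *psaJ* and *rpoC2* were still called (edgeR adjusted p = 0.0053 and 0.024), and *psbD* (log2 −0.51, adjusted p = 0.071), *psaB* (−0.41, 0.12), *rpoA* (−0.48, 0.052), and *atpB* (−0.26, 0.080) were not. Relative to the plastid coding sum edgeR called 0 loci (8 at an unadjusted p under 0.05; 0.188% and 0.126% of all genes were higher and lower), and 12 without WT at ZT16 replicate 1.

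Through the day in WT at 17°C, 0 of 84 coding loci differed between light and dark by edgeR (1 at an unadjusted p under 0.05; DESeq2 also 0), while 27.1% of all genes were higher and 26.2% lower in the light. Relative to the plastid coding sum it called 0 loci as well (0 unadjusted; 5.46% and 5.68% of all genes). Without WT at ZT16 replicate 2, 4 loci were called higher in the light, without WT at ZT16 replicate 1, 4 were called lower, and 1 was called without each of 7 other libraries. The coding share averaged 0.0898% in the light and 0.110% in the dark (difference −0.0203, exact permutation test over 8 time points, two-sided, p = 0.486), and without WT at ZT16 replicate 2 the difference was 0.0059. The shares of WT libraries ran from 0.0442% at ZT12 replicate 2 to 0.281% at ZT16 replicate 2. The coding share moved with the mitochondrial share across the 32 WT and *ss4* libraries (Pearson r = 0.954, Spearman rho = 0.908, r = 0.878 without the 2 libraries farthest from the median) and with the share of nuclear rRNA (r = 0.862, rho = 0.634, r = 0.558). In 12 starch mutant and WT libraries at ZT0 and ZT2, without *pgm* and *ss3/4/pgm* at ZT2, the relation was weaker. There it was r = 0.681, rho = 0.657, r = 0.577 with the mitochondrial share and r = 0.435, rho = 0.0979, r = −0.277 with nuclear rRNA. In 16 liquid culture libraries r was 0.892 and 0.852. Points of 1 library share depth and RNA preparation, and the part of these in the spread was not tested.

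At 22°C and 27°C, shares are percent of the authors' TPM, whose depth is unknown. The coding share was 0.154% at 27°C and 0.176% at 22°C on average over 8 time points (difference −0.0224, exact sign-flip permutation test, two-sided, p = 0.328). The rRNA share was 0.190% at 27°C and 0.292% at 22°C (difference −0.102, exact sign-flip permutation test, p = 0.0625, adjusted p = 0.359 over 23 share comparisons). The share of all plastid genes together, which passed the threshold unadjusted, is given with the alternatives below. Among 71 coding loci with TPM of at least 1 in 8 libraries, 1 was higher and 1 lower at 27°C by limma on log2(TPM + 1), paired by time (6 at an unadjusted p under 0.05), while 21.1% of 19956 genes were higher and 8.91% lower. *clpP* had 12.2, 23.3, and 38.7 TPM (lowest, median, highest) at 27°C and 7.47, 16.7, and 21.5 TPM at 22°C, and was higher at 27°C at 8 of 8 times (log2 0.60, SD 0.21, adjusted p = 2.7e-04). *atpE*, the ε subunit of the ATP synthase, had 18.9, 31.5, and 53.6 TPM at 27°C and 23.96, 47.0, and 60.8 TPM at 22°C, and was lower at 27°C at 8 of 8 times (log2 −0.42, SD 0.32, adjusted p = 0.0080). Both ranges overlapped between temperatures, and the direction showed within each time.

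In untreated and mock liquid culture, *atpE* had 5.47, 10.3, 8.81, and 8.53 CPM at 27°C and 14.6, 13.5, 12.8, and 14.2 CPM at 22°C, which do not overlap, and *clpP* had 12.5, 15.3, 18.8, and 20.2 CPM at 27°C and 13.2, 10.6, 12.5, and 13.1 CPM at 22°C, which do. Neither passed the test in the fit over all liquid culture libraries (log2 −0.74, adjusted p = 0.15, and 0.42, adjusted p = 0.30, edgeR), where 0 of 83 coding loci were called at 27°C against 22°C (6 at an unadjusted p under 0.05; 1.67% and 1.13% of all genes were called higher and lower; DESeq2 called 1). That fit takes its spread also from the libraries labelled DCMU and DBMIB, so its 0 is not read as no change. When only the untreated and mock groups entered the fit, 14 were called. The share of all genes called in that smaller fit is not given here, so the 14 are not read as a result about the plastid loci. Relative to the plastid coding sum 0 loci were called (0 unadjusted; 0.00986% and 0% of all genes).

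*psbA* as percent of plastid messages was higher at every light point than at every dark point at 22°C. It was chosen after its values were seen and is described without a test, over the 67 loci with TPM above 0 in all 16 libraries. In the order ZT−4, ZT0, ZT1, ZT2, ZT4, ZT8, ZT12, ZT16 it was 13.3%, 15.1%, 26.2%, 20.9%, 17.6%, 25.5%, 18.97%, and 16.0% at 27°C, and 19.1%, 17.9%, 32.6%, 23.7%, 21.7%, 30.8%, 18.3%, and 18.1% at 22°C. Light and dark overlapped at 27°C and did not overlap at 22°C. The means in light and dark were 22.5% ± 4.07 and 15.8% ± 2.36 at 27°C and 27.2% ± 5.28 and 18.3% ± 0.541 at 22°C (SD, n = 4 times each). The TPM of *psbA* itself showed no such split at 22°C, where it was 395.6, 207.7, 414.5, and 328.1 in the light and 405.2, 459.4, 271.5, and 318.1 in the dark. At 17°C, from counts, the means of the percent were 15.5% in the light and 18.4% in the dark. *rbcL* showed no such split at any temperature. Of the 67 loci, *psaJ* alone lay above its dark values at every light point at 27°C and *psbA* alone at 22°C, and 7 and 14 lay below theirs. The locus above thus differed between the temperatures. The share of all genes split in this way was not computed, so these counts are not read as a light response of the plastid loci.

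**Figure D5:**
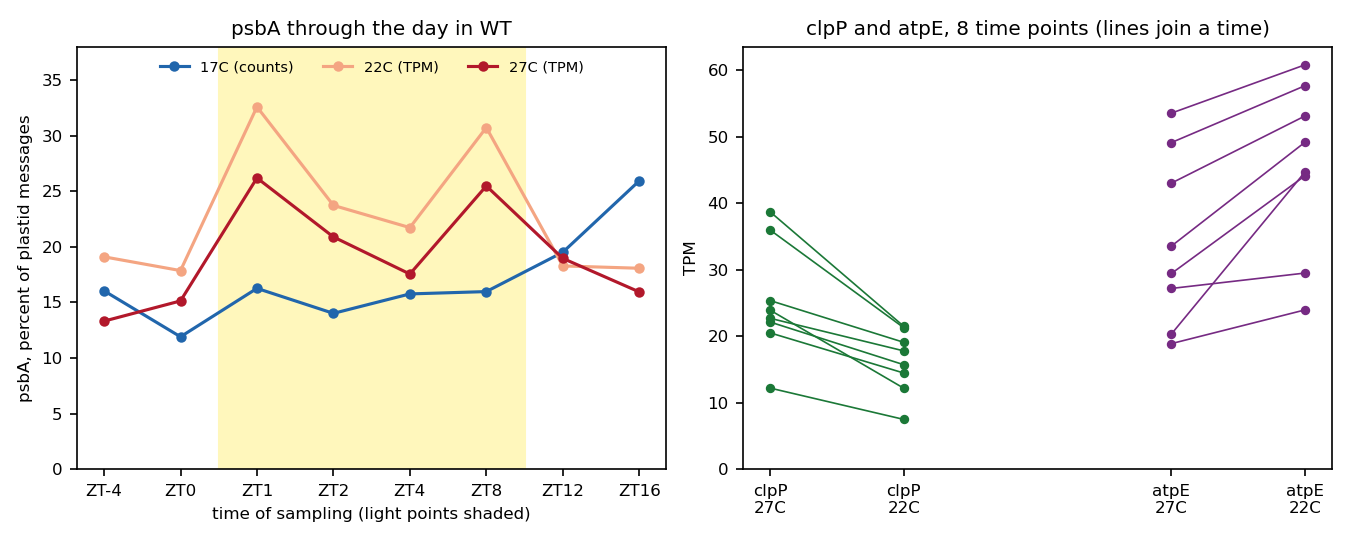
Left, *psbA* as percent of plastid messages in WT by time at 17°C (counts, mean of 2 libraries), 22°C, and 27°C (TPM), light points shaded; right, TPM of *clpP* and *atpE* at 27°C and 22°C with a line joining the values of each time. At 22°C *psbA* was 21.7% to 32.6% in the light and 17.9% to 19.1% in the dark, and *clpP* was higher at 27°C than at 22°C at all 8 times.

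For the inhibitors, the libraries are named by label only, since their replicates lay farther apart than libraries of different label. The coding share was 0.143%, 0.0608%, 0.0488%, and 0.103% in libraries labelled DCMU (22°C replicates 1 and 2, then 27°C), 0.0767%, 0.0817%, 0.0594%, and 0.123% in those labelled DBMIB, and 0.143%, 0.0786%, 0.173%, and 0.141% in mock. The ranges overlapped. The mean difference from mock was −0.0450 for DCMU and −0.0489 for DBMIB. *psbA* had 346, 114, 118, and 274 CPM in libraries labelled DCMU, 177, 145, 160, and 278 CPM in those labelled DBMIB, and 421, 135, 554, and 292 CPM in mock. The libraries under each label were unlike, so that the counts that follow compare labels and do not bear on the effect of either inhibitor. Of 83 coding loci, edgeR called 0 for DCMU (0 at an unadjusted p under 0.05, 0 by DESeq2; 7.86% and 8.69% of all genes were higher and lower), 0 for DBMIB (2 unadjusted, 1 by DESeq2; 6.46% and 7.48%), and 0 for mock against untreated (13 unadjusted; 0% of all genes). The fit takes its spread from all liquid culture groups, including the unlike ones. Its common dispersion was 0.142, against 0.0108 in the fit of WT and *ss4* and 0.00811 in that of the mutants. The 0 for mock against untreated is therefore not read as no change. Without the library labelled DCMU at 27°C replicate 2, 7 loci were called lower. Relative to the plastid coding sum 0 loci were called for DCMU (0 unadjusted; 3.67% and 0.237% of all genes) and 0 for DBMIB (0 unadjusted; 3.84% and 0.197%).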

How the data were processed

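Per the labels, sequencing was of RNA from pooled seedlings with TruSeq kits that select polyadenylated RNA. The authors counted reads per gene with an in-house pipeline, and the deposited count tables hold raw counts for 60 libraries; the submitters' notes name FastQC, Trimmomatic, TopHat, Picard, and TAIR10. The treatment of strand and of reads matching several places is not given in the sources used here. The deposited TPM of the 22°C and 27°C time course were scaled by the authors to gene length and library total; in the libraries with both units, 0 to 32 plastid loci per library had at least 10 counts and a TPM of 0. Here the members are the 133 ATCG loci, of which 125 matched the TAIR10.1 annotation at both ends, 5 at one end, 1 by sequence, and 2 not at all.

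Counts were tested in 3 fits of whole tables (20692, 20130, and 20291 genes; 32, 16, and 16 libraries) with edgeR 4.0.16 in R 4.3.3 (filterByExpr, TMM, glmQLFit, glmQLFTest, threshold 0.05), whose groups share their spread, and the fits with the sum of plastid coding counts as library size gave the change within the plastome. TPM were tested with limma 3.58.1 on log2(TPM + 1), which understates the change of low values. Shares were tested by exact permutation of labels (Python 3.11.15). In simulated data the TMM fit found 78 of 99 genes changed by log2 1 and 94 of 100 by log2 2 in *pgm* at ZT2, with 18 of 19486 unchanged nuclear genes called. Replicates differed by more than counting noise in all 30 pairs (chi-square per degree of freedom 2.65 to 209). Nothing says that replicates came from separate cultures, so p-values measure the spread between libraries. Columns of other samples numbered 0. The members, lists, and named genes (core subunits by role, the 3 largest rises and falls per comparison, and the 10 highest per length) were chosen with earlier results of these data known. Some results are not reported here.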

Additional observations from a re-analysis of the deposited data

Results flagged for a closer look

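The difference between the ZT2 and the ZT0 effect was tested in the fit itself. Of 86 plastid coding loci, 84 in *pgm*, 11 in *ss3/4*, and 84 in *ss3/4/pgm* were higher at ZT2 than at ZT0 relative to WT (edgeR, Benjamini-Hochberg adjustment over 20130 genes, threshold 0.05). The 3 counts share the same WT libraries.

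The 2 loci without an annotated product, which enter no comparison of the messages, also had counts in the libraries of *pgm* and *ss3/4/pgm* at ZT2. ATCG00870 (Pt 93495 to 93728) had 103 and 97 counts in *pgm* and 227 and 77 in *ss3/4/pgm*, against 4 and 7 in WT. ATCG01270 (Pt 144921 to 145154) had 105 and 105 counts in *pgm* and 233 and 89 in *ss3/4/pgm*, against 1 and 9 in WT. In the reference the sequence of each is the exact reverse complement of the other.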

How the results depend on the processing

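Across the alternatives run for the shares and the counts of called loci, 478 values were scored as the same, 89 moved, 3 reversed, and 2 came past the threshold. A count of called loci was scored only by how far its size changed, and not by the direction of the calls. A count scored as the same could therefore still differ somewhat from the main one. For named genes and values, 4124 of 4499 alternatives over 354 results kept their call, 375 lost it, and 0 reversed. The difference in coding share between light and dark at 17°C reversed without ZT16 (0.0019) and, chosen after seeing the data, without WT at ZT16 replicate 2 (0.0059). With all plastid genes in place of coding loci, the share of *ss3/4* minus WT reversed (0.142), and that of 27°C minus 22°C passed the threshold (−0.469, exact permutation p = 0.0234). Without WT at ZT16 replicate 1, the share of *ss4* minus WT passed it (−0.0341, exact permutation p = 0.044). The causes were not tested.

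With at least 10 counts in every library only 36 coding loci remained in the mutant fit, and the numbers called were 35 at ZT2, 36 for ZT2 minus ZT0, 32 for the mean, and 9 at ZT0 in *pgm*, 35, 35, and 30 for the first 3 of these in *ss3/4/pgm*, 6 in *ss3/4* at ZT2, and 1 between light and dark. Without a filter the numbers were 41 in *pgm*, 48 in *ss3/4*, and 65 in *ss3/4/pgm* at ZT0, 35 in *ss3/4* at ZT2, 49 for its mean, 29 in *ss4*, and 9 between light and dark. With only the compared groups in the fit they were 23 in *pgm* and 60 in *ss3/4/pgm* at ZT0, 22 in *ss3/4* at ZT2, 14 for 27°C minus 22°C in liquid culture, 2 for DBMIB, and 1 between light and dark. DESeq2 called 16 for the mean of *ss3/4*, 1 for 27°C minus 22°C in liquid culture, and 1 for DBMIB. Without WT at ZT16 replicate 2, 3 were called in *ss4* (1 within the plastome) and 4 between light and dark, and without *pgm* replicate 2 at ZT0 1 within the plastome of *pgm*. TMM over plastid loci gave 2 within the plastome of *ss3/4/pgm* at ZT0. The shares of all genes called under these settings are not given here, so these numbers have no reference.

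Replicate numbers did not pair the samples in the fits at 17°C (correlation of deviations −0.153 to 0.192) and with the mutants (−0.0864 to 0.166). In liquid culture the correlations ran from −0.860 to 0.859 (median 0.0797), so that shared deviations of same-numbered replicates cannot be set aside there. *rpl32* had more counts in replicate 2 than in replicate 1 in every liquid culture group, such as 247 against 10 in mock at 27°C. The source of this was not tested. With the replicate number as a block, 1 locus was called between light and dark and 0 within the plastome of *ss3/4/pgm* at ZT0, the shares kept their values (−0.0210 for *ss4*), and no other count of calls moved by over 1.5 times.

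With 1 time point left out at a time, the share differences ran from −0.0403 to 0.0019 for light minus dark and −0.0316 to −0.0078 for 27°C minus 22°C. With 1 library left out at a time, they ran from −0.0341 to −0.0079 in *ss4*, 0.762 to 0.874 in *pgm*, −0.0636 to −0.0342 in *ss3/4*, 0.699 to 0.909 in *ss3/4/pgm*, −0.0655 to −0.0245 for DCMU, and −0.0651 to −0.0327 for DBMIB. The called loci ran from 85 to 86 in *pgm* and 84 to 86 in *ss3/4/pgm* at ZT2, 8 to 17 in *ss3/4* at ZT2, 8 to 18 in *pgm*, 10 to 48 in *ss3/4*, and 23 to 27 in *ss3/4/pgm* at ZT0, 83 to 85 for both ZT2 minus ZT0 effects, 61 to 76, 17 to 44, and 68 to 73 for the means of *pgm*, *ss3/4*, and *ss3/4/pgm*, 2 to 15 in *ss4*, 0 to 4 for light minus dark, 0 to 7 for DCMU, 0 to 1 for DBMIB, and 0 to 0 for 27°C minus 22°C in liquid culture. Within the plastome they ran from 14 to 19 and 15 to 18 in *pgm* and *ss3/4/pgm* at ZT2, 8 to 17 and 8 to 12 for ZT2 minus ZT0, 14 to 25 and 14 to 18 for the means, 0 to 7 and 0 to 0 at ZT0, 0 to 9, 0 to 1, and 1 to 15 in *ss3/4* at ZT0, at ZT2, and for its mean, 0 to 12 in *ss4*, and 0 to 1 for light minus dark.

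Depth limits the loci with few counts in WT, and TPM carry no depth.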
